A study of Yarrowia lipolytica with 9 samples.

Results

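The erythritol utilization genes of the yeast *Yarrowia lipolytica* are 5 genes with neighbouring locus tags. They comprise a regulator (YALI0F01562g), the isomerases YALI0F01584g and YALI0F01628g, an erythrulose kinase (YALI0F01606g) and an erythritol dehydrogenase (YALI0F01650g). They were taken by locus tag from the 6170 genes of an RNA-seq table, and 5 of 5 were present, with 0 other measured genes between them in locus-tag order. The study sequenced mRNA of the wild-type strain W29 grown in bioreactors whose medium was held at pH 2.0, 4.0 or 6.0, with 3 cultures per pH, and asked how acidity bears on citric acid and lipid production. All cultures had the same medium, which held glucose at 50 g/L as the carbon source, with yeast nitrogen base (1.7 g/L), ammonium sulfate (1 g/L) and a little yeast extract (1.5 g/L), and all were taken at hour 50. The labels describe no culture with erythritol as the carbon source and no mutant strain. The labels describe triplicate bioreactors, and each library is taken as 1 of them.

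Erythritol is a sugar alcohol that *Y. lipolytica* both makes and consumes. It is made from erythrose 4-phosphate, an intermediate of the pentose phosphate pathway, by loss of the phosphate and reduction of the sugar. It is consumed by the opposite kind of chemistry: the dehydrogenase oxidizes erythritol to erythrulose, the kinase phosphorylates erythrulose, and isomerases turn the product back into erythrose 4-phosphate. The regulator is needed for growth on erythritol, and transcripts of the kinase and the dehydrogenase are known to respond to erythritol and erythrulose, so that their promoters serve as inducible promoters in this yeast.

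Values are CPM, read counts scaled to a common effective library size, and a library held 12974822 to 17701766 reads. The 5 genes had between 269 and 6457 reads in a library, so none was near the floor of 3 reads. Gene lengths are not used here, so levels are compared between pH values for 1 gene and not between genes. A CPM is a share of the RNA in a culture, and more RNA per cell cannot be told apart from more cells that express the gene. Within a pH, the root mean square deviation of all genes from their pH mean (log2 of CPM + 1) was 0.2005 in pH 2.0 replicate A and 0.181 and 0.184 in replicates B and C. It was 0.134 to 0.168 in the pH 4.0 libraries and 0.0953 to 0.131 in the pH 6.0 libraries.

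Transcripts of the regulator, the isomerase YALI0F01584g, the kinase and the dehydrogenase were higher at pH 6.0 than at pH 2.0 and at pH 4.0. Against pH 4.0 only the call of the regulator held in every alternative fit. None of the 5 was called between pH 4.0 and pH 2.0 in limma. There the kinase was at a log2 value of 0.63, the dehydrogenase at 0.54, the isomerases at 0.26 and 0.25, and the regulator at 0.02. Of the 5, only the regulator had a called difference between the upper and the lower pH step. Whether that difference is larger than in the other genes was not tested. The isomerase YALI0F01628g was not called in any pair. Calls were made where limma gave an adjusted p under 0.05, fitted over the 6165 genes that passed a filter on low values, which all 5 genes passed. Between pH 6.0 and pH 2.0, 4 of the 5 were called higher and 0 lower (4 and 0 also at an unadjusted p under 0.05, with edgeR and with DESeq2), where 35.1% of all genes were called higher and 37.9% lower, 73.0% in all. Their median log2 fold change was 0.82, against -0.04 over all genes. In the same 4 genes every pH 6.0 library lay above every library of pH 2.0 and of pH 4.0. Of all genes, 37.6% had every pH 6.0 library above those of pH 2.0, and 31.7% had every one above those of pH 4.0.

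The regulator, YALI0F01562g, had 21.1, 23.9 and 20.8 CPM in replicates A, B and C at pH 2.0, 20.0, 21.1 and 26.1 CPM at pH 4.0, and 37.2, 43.3 and 37.9 CPM at pH 6.0. The pH 6.0 libraries lay above all others, while those of pH 4.0 and pH 2.0 overlapped. It averaged 39.5 ± 3.37 CPM at pH 6.0 and 21.9 ± 1.72 CPM at pH 2.0 (SD, n = 3 each), a log2 fold change of 0.82 (SE 0.11, adjusted p = 8.05e-05 in limma). Against the 22.4 ± 3.24 CPM of pH 4.0, the change at pH 6.0 was 0.80 (SE 0.11, adjusted p = 0.000300 in limma). Between pH 4.0 and pH 2.0 the log2 fold change was 0.02 (95% CI -0.23 to 0.28). The upper step (pH 6.0 minus pH 4.0) exceeded the lower step (pH 4.0 minus pH 2.0) by a log2 value of 0.77 (SE 0.20, adjusted p = 0.00903 in limma). It was the 1 gene of the 5 with a called step difference, where 50.4% of all genes had one, 26.1% with a higher and 24.3% with a lower upper step. With quantile normalization the difference of the steps was not called (0.47, adjusted p = 0.0646), and the change between pH 4.0 and pH 2.0 was called higher (0.30, adjusted p = 0.0361). For the kinase the step difference was 0.17, for the dehydrogenase 0.11, for YALI0F01584g 0.28 and for YALI0F01628g -0.14. None of these was called (adjusted p from 0.478 to 0.848 in limma). The 95% CI was -0.87 to 1.21 for the kinase and -0.82 to 1.03 for the dehydrogenase. For YALI0F01584g it was -0.42 to 0.98. These intervals hold the regulator's 0.77, and that of YALI0F01628g (-0.93 to 0.65) does not. The step differences were not tested against each other.

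**Figure D1:**
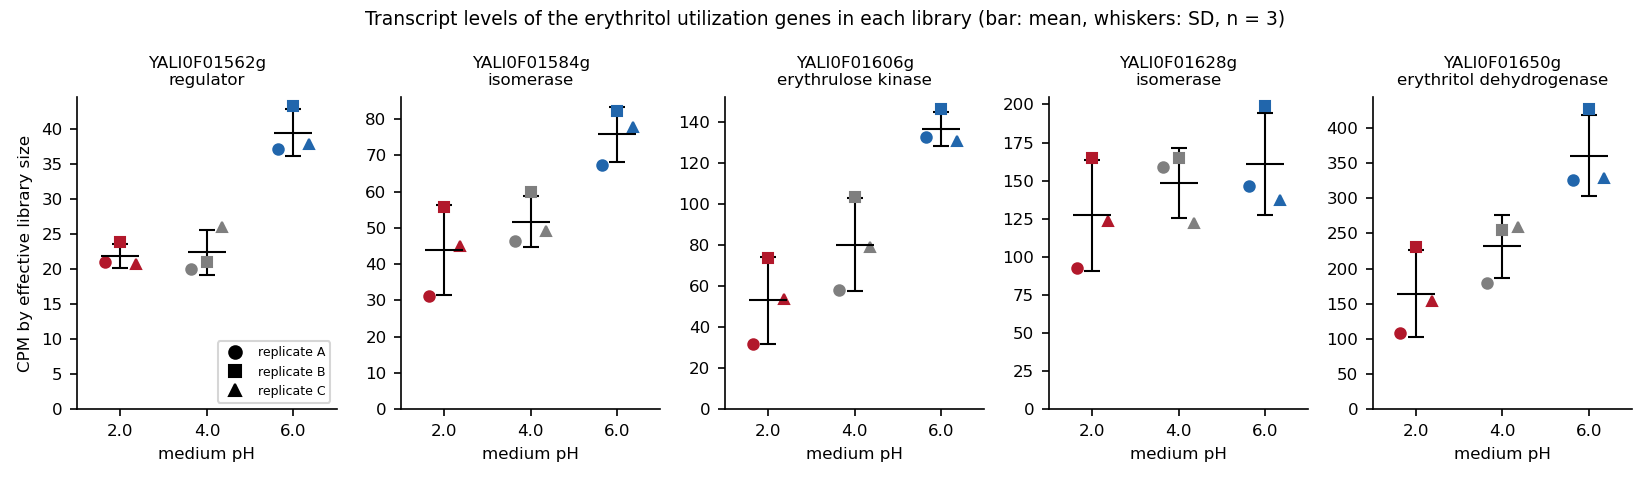
Level of each of the 5 genes (vertical axis, CPM by effective library size, from 0) at each medium pH (horizontal axis), with 1 symbol per library, the symbol shape giving the replicate letter, a bar at the mean and whiskers of 1 SD (n = 3). In every panel but that of YALI0F01628g the 3 libraries of pH 6.0 lie above those of pH 4.0 and pH 2.0, as with the kinase at 130.4 to 146 CPM at pH 6.0.

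Erythritol dehydrogenase, YALI0F01650g, which takes the first step by oxidizing erythritol, had 108, 230.2 and 154 CPM in replicates A, B and C at pH 2.0. It had 180.1, 255 and 259.7 CPM at pH 4.0 and 326, 427 and 328 CPM at pH 6.0. The pH 6.0 libraries lay above all those of pH 4.0 and pH 2.0, which overlapped each other. The mean was 361 ± 57.6 CPM at pH 6.0 and 164 ± 61.5 CPM at pH 2.0 (SD, n = 3 each), a log2 fold change of 1.19 (SE 0.24, adjusted p = 0.00111 in limma).

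The erythrulose kinase, YALI0F01606g, which phosphorylates the product of the dehydrogenase, had 31.6, 73.8 and 53.6 CPM at pH 2.0, 57.9, 103 and 79.1 CPM at pH 4.0, and 133, 146 and 130.4 CPM at pH 6.0. Its libraries at pH 6.0 did not overlap those of pH 4.0 or pH 2.0, whereas pH 4.0 and pH 2.0 overlapped. It averaged 136 ± 8.47 CPM at pH 6.0 and 53.0 ± 21.1 CPM at pH 2.0 (SD, n = 3 each), and its log2 fold change of 1.43 (SE 0.27, adjusted p = 0.000723 in limma) was the largest of the 5, above that of 95.1% of all genes. The intervals of the kinase (95% CI 0.83 to 2.03) and of the dehydrogenase (0.65 to 1.72) overlap widely.

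The isomerases act on the phosphorylated sugar. YALI0F01584g had 31.1, 55.8 and 44.9 CPM at pH 2.0, 46.4, 59.7 and 49.1 CPM at pH 4.0, and 67.3, 82.2 and 77.7 CPM at pH 6.0, so the pH 6.0 libraries were again the highest. Its mean was 75.7 ± 7.60 CPM at pH 6.0 and 43.9 ± 12.4 CPM at pH 2.0 (SD, n = 3 each), a log2 fold change of 0.81 (SE 0.18, adjusted p = 0.00227 in limma). The other isomerase, YALI0F01628g, had 92.5, 165 and 124 CPM at pH 2.0, 159, 165 and 122 CPM at pH 4.0, and 147, 199 and 137 CPM at pH 6.0. Its libraries overlapped between every pair of pH values. The mean was 161 ± 33.5 CPM at pH 6.0 and 127 ± 36.4 CPM at pH 2.0 (SD, n = 3 each), with a log2 fold change of 0.36 that was not called (95% CI -0.10 to 0.82, adjusted p = 0.140 in limma). Without pH 2.0 replicate B, its highest library at pH 2.0, the value was 0.57 and was called (adjusted p = 0.0193 in limma), and without pH 2.0 replicate A it was 0.15. The F test over the 3 pH values called the other 4 genes and not this one (adjusted p = 0.266 in limma), where 84.0% of all genes were called.

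**Figure D2:**
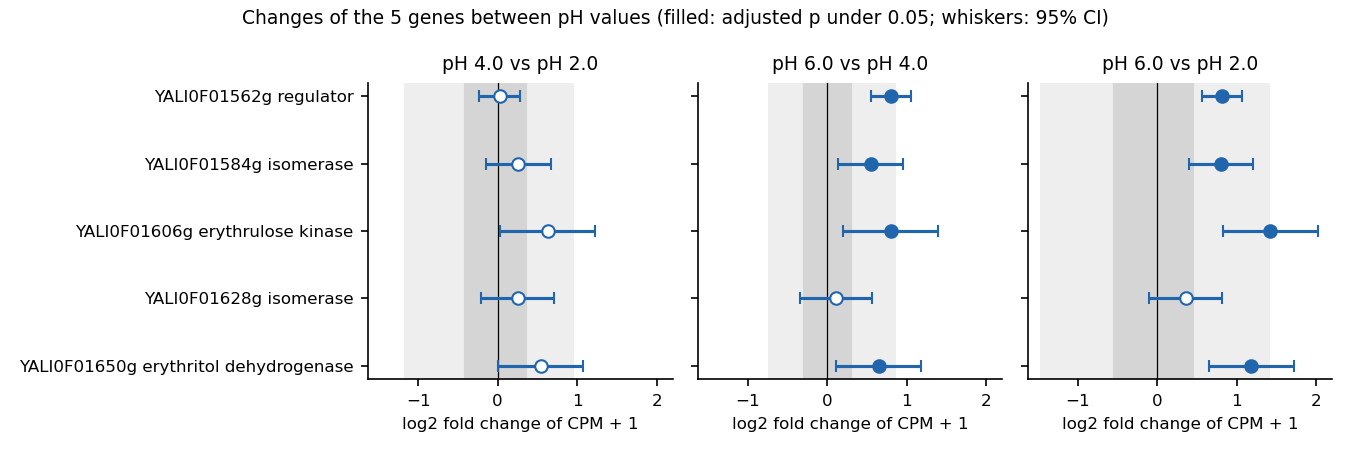
Log2 fold change of CPM + 1 (horizontal axis) of each gene between 2 pH values, with 95% confidence intervals from limma and filled points at an adjusted p under 0.05. Dark and light bands hold the middle 50% and 90% of all 6165 genes. Between pH 6.0 and pH 2.0 the kinase, at 1.43, lies at the upper edge of the light band, which ends at 1.41, and YALI0F01628g, at 0.36, inside the dark one.

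Between pH 6.0 and pH 4.0, 4 of the 5 genes were called higher and 0 lower, where 25.7% of all genes were called higher and 25.8% lower, 51.5% in all. The kinase averaged 136 ± 8.47 CPM at pH 6.0 and 80.1 ± 22.7 CPM at pH 4.0 (log2 0.80, SE 0.27, adjusted p = 0.0300 in limma). The dehydrogenase averaged 361 ± 57.6 CPM at pH 6.0 and 231 ± 44.6 CPM at pH 4.0 (log2 0.65, SE 0.24, adjusted p = 0.0438 in limma). For the isomerase YALI0F01584g the means were 75.7 ± 7.60 CPM at pH 6.0 and 51.7 ± 7.06 CPM at pH 4.0 (SD, n = 3 each; log2 0.54, SE 0.18, adjusted p = 0.0286 in limma). The call of the regulator held in each of 20 alternative fits, and the other 3 calls did not. That of the kinase was lost when pH 4.0 replicate A (0.59), pH 4.0 replicate C (0.81) or any 1 library of pH 6.0 was left out (0.82 without A, 0.75 without B, 0.83 without C). For the dehydrogenase it was lost without pH 2.0 replicate C (0.65), without any 1 library of pH 4.0 (0.48 for A, 0.72 for B, 0.74 for C) and without any 1 library of pH 6.0 (0.71 for A, 0.52 for B, 0.71 for C). YALI0F01584g lost it when pH 4.0 replicate A (0.47), pH 4.0 replicate C (0.51), pH 6.0 replicate B (0.48) or pH 6.0 replicate C (0.52) was left out. All 3 were also lost with quantile normalization, and that of the dehydrogenase without a mean-variance trend (adjusted p = 0.0565 in limma). YALI0F01628g had a log2 fold change of 0.11 (95% CI -0.35 to 0.56).

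Between pH 4.0 and pH 2.0, limma called 0 of the 5 genes in either direction, where 30.8% of all genes were called higher and 32.6% lower, 63.4% in all. At an unadjusted p under 0.05 it had 2 higher and 0 lower. With edgeR 0 were called (0 also unadjusted), and with DESeq2 2 were called higher. The kinase averaged 80.1 ± 22.7 CPM at pH 4.0 and 53.0 ± 21.1 CPM at pH 2.0 (log2 0.63, 95% CI 0.03 to 1.23, adjusted p = 0.0635 in limma). For the dehydrogenase the means were 231 ± 44.6 CPM at pH 4.0 and 164 ± 61.5 CPM at pH 2.0 (log2 0.54, 95% CI 0.01 to 1.07, adjusted p = 0.0710 in limma). These 2 genes were called higher with DESeq2 (0.61 and 0.51, adjusted p = 0.0287 and 0.0438). Leaving out pH 2.0 replicate B in limma gave calls for the kinase (0.90), the dehydrogenase (0.82) and the isomerase YALI0F01584g (0.45, against 0.26 with all libraries). Leaving out pH 4.0 replicate A gave calls for the kinase (0.84) and the dehydrogenase (0.71). The values were 0.30 and 0.28 without pH 2.0 replicate A. The isomerase YALI0F01628g had a log2 fold change of 0.25 (95% CI -0.21 to 0.71). Scaling to equal column totals put the all-gene median at -0.22, against -0.02 as deposited, and there the regulator was at -0.17 and the kinase at 0.42, and neither was called.

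The 4 enzyme genes had a wider spread within a pH than most genes. The standard deviation of the log2 values within a pH was 0.43 for the kinase, 0.38 for the dehydrogenase, 0.32 for YALI0F01628g and 0.28 for YALI0F01584g, against a median of 0.13 over all genes. Those values exceed the ones of 97.6%, 96.6%, 94.5% and 91.8% of all genes. The regulator had 0.14, above 58.6% of genes. At pH 2.0 the spread was widest for the kinase, whose highest library had 2.34 times the CPM of its lowest, and for the dehydrogenase, with 2.12 times. In pH 2.0 replicate A the 4 enzyme genes were at their lowest of the 9 libraries, and replicate B was the highest at pH 2.0 for all 5 genes. Behind these CPM values the kinase had 515, 1088 and 953 reads in replicates A, B and C.

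**Figure D3:**
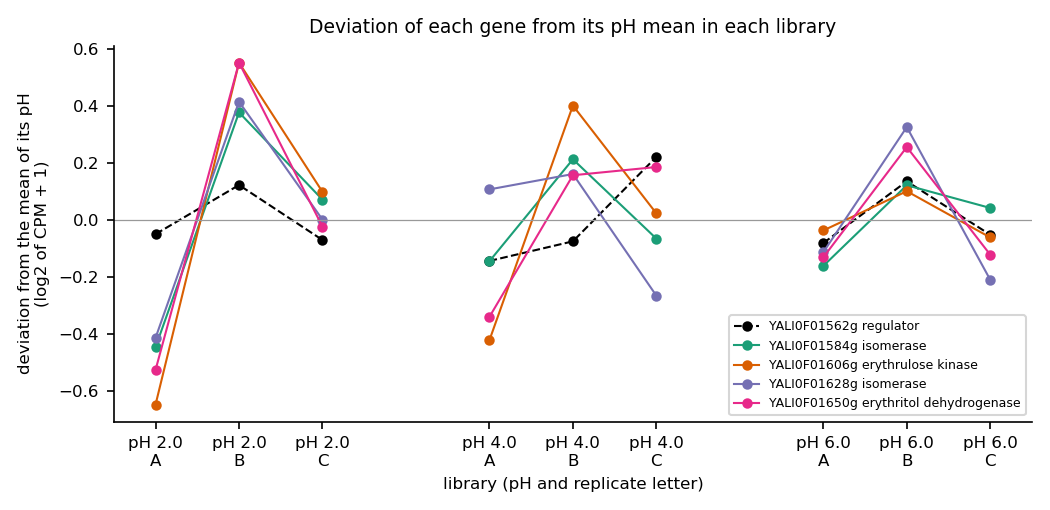
Deviation of each gene from the mean of its pH (vertical axis, log2 of CPM + 1) in each of the 9 libraries (horizontal axis), 1 line per gene, dashed for the regulator. In pH 2.0 replicate A the 4 enzyme genes lie between -0.65 and -0.41 and in replicate B between 0.38 and 0.55, while the regulator lies at -0.05 and 0.12.

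The kinase, the dehydrogenase and YALI0F01584g deviated from their pH means together, and YALI0F01628g followed them less closely. Over the 9 libraries, whose values for each gene share the scaling of the library and the 3 pH means, the deviations of the kinase had r = 0.94 with those of YALI0F01584g, 0.92 with those of the dehydrogenase and 0.68 with those of YALI0F01628g. Among 6164 other genes, YALI0F01584g ranked 10, the dehydrogenase 15 and YALI0F01628g 368 by this measure. In pH 4.0 replicate A YALI0F01628g was at 0.11, against -0.42 for the kinase and -0.34 for the dehydrogenase. In pH 4.0 replicate C it was at -0.27, against 0.02 and 0.19. The regulator's deviations had r = 0.40 with the kinase, 0.69 with the dehydrogenase, 0.34 with YALI0F01584g and 0.18 with YALI0F01628g. These correlations are descriptions of 9 libraries, and 29 genes had r of at least 0.9 with the kinase.

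Across the log2 levels of the 9 libraries, pH differences included, the kinase and the dehydrogenase were each other's nearest gene of 6164 (r = 0.98), and YALI0F01584g ranked 2 for the kinase (r = 0.98) and 5 for the dehydrogenase (r = 0.96). The regulator ranked 715 for the kinase (r = 0.81) and YALI0F01628g ranked 1286 (r = 0.71). Seen from YALI0F01628g, however, YALI0F01584g ranked 15, the dehydrogenase 25 and the kinase 32. Outside the 5 genes, the profiles most like that of the kinase were YALI0D27016g and YALI0F13277g (r = 0.97 each) and YALI0A19910g (r = 0.96). Those nearest to the dehydrogenase were YALI0F13277g and YALI0B02332g (r = 0.97 each) and YALI0E18139g (r = 0.96), and those nearest to YALI0F01584g were YALI0C09889g, YALI0F18656g and YALI0C01903g (r = 0.96 each). For the regulator they were YALI0D15840g (r = 0.99), YALI0D12540g and YALI0D06754g (r = 0.98 each). YALI0D15840g averaged 73.0 ± 3.33 CPM at pH 2.0, 72.8 ± 6.71 CPM at pH 4.0 and 108 ± 1.78 CPM at pH 6.0 (SD, n = 3 each). Pearson r does not measure the size of a change. Between pH 6.0 and pH 2.0 the kinase was at a log2 fold change of 1.43. YALI0D27016g was at 0.34, YALI0F13277g at 0.37 and YALI0A19910g at 0.84. The dehydrogenase was at 1.19, YALI0B02332g at 0.29 and YALI0E18139g at 0.53. YALI0F01584g was at 0.81 and the genes named for it, in that order, at 0.53, 0.68 and 0.35. The regulator was at 0.82 and the genes named for it at 0.56, 0.89 and 1.09. YALI0F01628g had no gene at r of 0.9 or more, and its nearest were YALI0E29381g (r = 0.88), YALI0D21186g (r = 0.87) and YALI0F21384g (r = 0.85), the last of these at 1.28 to 2.05 CPM on average. In all, 355 genes (5.76%) had r of at least 0.9 with the regulator, 88 (1.43%) with the kinase, 62 (1.01%) with the dehydrogenase and 48 (0.779%) with YALI0F01584g.

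The ratio of 2 genes within a library does not depend on the scaling of that library, and its change between pH values does not depend on gene length. The CPM ratio of the kinase to YALI0F01628g was 0.341, 0.447 and 0.434 in replicates A, B and C of pH 2.0. In the pH 4.0 libraries it was 0.365, 0.626 and 0.647, and in those of pH 6.0 it was 0.905, 0.733 and 0.952, above all others. The ratio of YALI0F01628g to the dehydrogenase was 0.853, 0.717 and 0.803 in the pH 2.0 libraries. It was 0.881, 0.647 and 0.471 in those of pH 4.0 and 0.449, 0.466 and 0.417 in those of pH 6.0, which lay below all others. The ratio of the kinase to the dehydrogenase moved least among the enzyme pairs between the ends of the range, with geometric means of 0.381 at pH 6.0 and 0.319 at pH 2.0. An exact permutation test over all ways to assign the 9 libraries to 3 groups of 3, which can give no p below 0.00357, found p = 0.0214 for the kinase over YALI0F01628g, 0.0357 for YALI0F01628g over the dehydrogenase and 0.0321 for YALI0F01584g over the kinase. None of the 10 ratios passed after Benjamini-Hochberg adjustment over the 10 exact tests (adjusted p = 0.119 for these 3, unadjusted p under 0.05 for 3 of 10). Without pH 4.0 replicate A those 3 passed, with adjusted p = 0.0357, 0.0357 and 0.0476 in the exact test.

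The genes around the 5 were not uniform. Of the 5 genes before and the 5 after them in locus-tag order, 5 were called higher and 2 lower at pH 6.0 relative to pH 2.0, and 3 were not called, with a median log2 fold change of 0.18. The 7 called of 10 are close to the share over all genes (73.0%, with 35.1% higher and 37.9% lower). YALI0F01672g, the gene after the dehydrogenase, had 127, 110.5 and 196 CPM at pH 6.0, against 16.3, 22.5 and 19.5 CPM at pH 2.0. Its log2 fold change of 2.80 (SE 0.26, adjusted p = 4.87e-06 in limma) exceeded that of each of the 5 genes. At pH 4.0 it had 47.3, 62.7 and 99.3 CPM and was already called higher than at pH 2.0 (log2 1.74, SE 0.26, adjusted p = 0.000240 in limma). On the other side, YALI0F01540g, the gene before the regulator, had 10.1, 10.3 and 9.17 CPM at pH 6.0 and 5.02, 5.63 and 5.85 CPM at pH 2.0 (log2 0.74, SE 0.13, adjusted p = 0.000383 in limma). YALI0F01518g and YALI0F01694g, each 1 gene further out, were called higher at 0.70 and 0.72, whereas the outermost genes YALI0F01452g and YALI0F01771g were called lower at -0.53 and -0.59. YALI0F01474g was called higher (0.35), a call lost under scaling to equal totals (0.14). Under that scaling YALI0F01496g (-0.40) and YALI0F01738g (-0.45) were called lower, as they were with quantile normalization (-0.56 and -0.38), and they were at -0.19 and -0.23 and not called as deposited. YALI0F01496g was also called without pH 4.0 replicate A or C and in a fit of the 2 groups compared (-0.19 each). YALI0F01738g was also called without pH 6.0 replicate C (-0.36). The flanking genes have no annotation in the files. Whether the authors' counting used strand is not given in the sources used here, so reads of overlapping neighbours may be shared between genes.

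**Figure D4:**
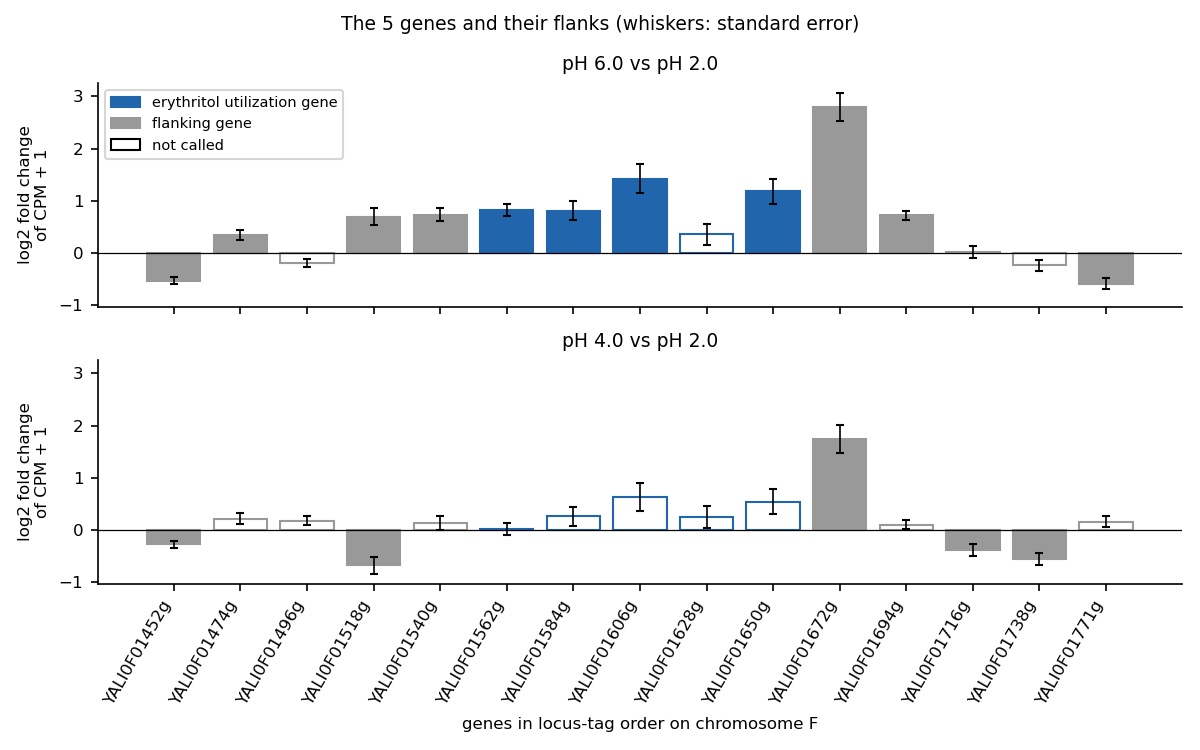
Log2 fold change of CPM + 1 (vertical axis, bars from 0, whiskers of 1 SE) of the 5 genes and of 5 flanking genes on each side, in locus-tag order (horizontal axis), for pH 6.0 against pH 2.0 above and pH 4.0 against pH 2.0 below. Filled bars were called at an adjusted p under 0.05, blue for the 5 genes and grey for flanks, and YALI0F01672g stands highest at 2.80 and 1.74.

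The genes that supply erythritol form the other side of the pathway. Of 7 genes listed for the pentose phosphate pathway and erythrose reduction, 6 were called higher at pH 6.0 relative to pH 2.0 and 1 was not called, where 35.1% of all genes were called higher and 73.0% in either direction. Their median log2 fold change was 0.66, against -0.04 over all genes. The erythrose reductase YALI0F18590g, which reduces erythrose to erythritol, averaged 1756 ± 20.1 CPM at pH 6.0 and 1047 ± 58.7 CPM at pH 2.0 (SD, n = 3 each; log2 0.75, SE 0.07, adjusted p = 3.77e-06 in limma). Transketolase YALI0E06479g, which makes erythrose 4-phosphate, was higher by 0.66 (SE 0.08) and transaldolase YALI0F15587g, which makes it too, by 0.45 (SE 0.07). Glucose-6-phosphate dehydrogenase YALI0E22649g, the entry step of the pathway, and 6-phosphogluconate dehydrogenase YALI0B15598g were higher by 1.04 and 0.66. Of the reductase candidates, YALI0D07634g was higher by 0.56, a call lost with quantile normalization (0.22). The other, YALI0C13508g, was not called (0.24, adjusted p = 0.0851 in limma), but it was called without pH 2.0 replicate A (0.38). Between pH 4.0 and pH 2.0, 6 of these 7 were called higher, against 30.8% of all genes (63.4% in either direction), and limma called 0 of the 5 utilization genes. The median log2 fold changes were closer, at 0.35 for the 7 and 0.26 for the 5 utilization genes. The uncalled kinase (0.63, SE 0.27) and dehydrogenase (0.54, SE 0.24) had wider standard errors than, for example, the called transaldolase (0.35, SE 0.07). The difference between the lists was not tested. Of these 6 calls, those of transketolase, transaldolase and YALI0F18590g were lost under equal totals (-0.01, 0.14 and 0.02) and with quantile normalization (0.01, -0.00 and -0.13). That of YALI0D07634g was lost with quantile normalization (0.18). That of transketolase (0.20 with all libraries) was also lost without replicate A (0.16) or B (0.18) of pH 2.0, without A (0.17) or B (0.20) of pH 4.0, and without any 1 library of pH 6.0 (0.20 each). A fit of the 2 groups compared lost it too (adjusted p = 0.0999 in limma).

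Of 2 genes of glycerol use, another route for a small polyol, the mitochondrial glycerol-3-phosphate dehydrogenase YALI0B13970g was higher at pH 6.0 than at pH 2.0 (log2 0.56, SE 0.08). Glycerol kinase YALI0F00484g was not called, at 467 ± 28.5 CPM at pH 6.0 and 482 ± 25.2 CPM at pH 2.0 (log2 -0.05, 95% CI -0.22 to 0.13), but it was called lower under equal totals (-0.26) and quantile normalization (-0.44). The regulator of hyphal growth YALI0B21582g, taken here to mark filamentous cells, had 39.4 ± 3.52 CPM at pH 2.0, 28.0 ± 6.45 CPM at pH 4.0 and 34.9 ± 4.02 CPM at pH 6.0 (SD, n = 3 each). It was not called between pH 6.0 and pH 2.0 (log2 -0.17, adjusted p = 0.346 in limma), but it was called lower under equal totals (-0.38). Between pH 4.0 and pH 2.0 it was called lower (log2 -0.50, SE 0.16, adjusted p = 0.0181 in limma), a call lost with quantile normalization (-0.34) and without pH 2.0 replicate C (-0.43). Its upper step exceeded its lower step by a log2 value of 0.82 (SE 0.27, adjusted p = 0.0290 in limma). That call was lost with quantile normalization (0.67) and without pH 2.0 replicate C (0.75), pH 4.0 replicate C (0.43), pH 6.0 replicate A (0.82) or pH 6.0 replicate B (0.74). The part of the cell form in the values of the 5 genes was not tested.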

How the data were processed

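RNA was isolated by bead beating, treated with DNase, built into stranded TruSeq libraries and sequenced for 101 cycles, per the labels' protocols. The submitters' processing notes name TopHat2 2.0.10, HTSeq, edgeR, Trimmomatic 0.30 and bcl2fastq 1.8.4. Genome build, annotation and strand setting are not stated in the labels or the file headers. Per the file headers, the deposited values are a normalized signal, CPM that the authors scaled with effective library sizes from edgeR. The column sums lay between 904216 and 1094635. Every pH 2.0 library had a sum of at most 910806, and every other library had 1010486 or more. The scaling therefore differed between pH 2.0 and the other pH values. Every value (100%, within 0.01 reads) came out as a whole number of reads, which gave 12974822 to 17701766 reads per library. The identifiers matched 0 of 8689 genes of the reference table, so no coordinates are given, and gene roles are background from published locus-tag assignments.

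The filter on low values required 1 CPM in 3 or more libraries (6165 genes kept; 5 removed). The test was limma 3.58.1, run in R 4.3.3 on log2(CPM + 1) with a trend of variance on mean, 1 mean per pH over 9 libraries (6 residual degrees of freedom), two-sided, with Benjamini-Hochberg adjustment over all genes. Fold changes are on that scale, which understates those of low genes. Alternatives were other pseudocounts (0.25 and 5), a 10 CPM filter or none, equal column totals, quantile normalization, a replicate block, no trend, fits of the 2 groups compared, a threshold of 0.01, leaving out each library, and edgeR 4.0.16 (quasi-likelihood) and DESeq2 1.42.0 on the recovered reads, where edgeR called 4512 genes between pH 6.0 and pH 2.0. Scripts were tested on simulated data. The 5 genes, the lists and the tests were chosen with earlier results of these data known. Genes were named by rule: the 5 genes, 5 flanking genes on each side, 7 genes of erythritol supply, 2 of glycerol use, the filament marker, and the 3 genes with the highest Pearson r to each of the 5.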

Additional observations from a re-analysis of the deposited data

How the results depend on the processing

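Between pH 6.0 and pH 2.0 the 4 calls held in every alternative run. The log2 fold changes were 0.61 to 1.08 for the regulator, 0.91 to 1.46 for the dehydrogenase and 0.58 to 1.00 for YALI0F01584g. The kinase ranged from 1.102, without pH 2.0 replicate A, to 1.70, without pH 2.0 replicate B (adjusted p at most 0.00382 in limma, edgeR and DESeq2). No called value changed direction. Of the results under all alternatives, 24 lost a call, 16 gained 1 and 14 counts moved by over 1.5 times. The other 757 kept their side of the threshold or, for counts, stayed within 1.5 times of the count reported. The cause was not tested. Without single libraries, YALI0F01628g ranged from 0.15 to 0.57 between pH 6.0 and pH 2.0 and its F test from an adjusted p of 0.0388 to 0.708 (called without pH 2.0 replicate B, the lowest p). Likewise, between pH 4.0 and pH 2.0 the kinase ranged from 0.30 to 0.90, the dehydrogenase from 0.28 to 0.82 and YALI0F01584g from 0.039 to 0.45, with 0 to 3 genes called. Between pH 6.0 and pH 4.0 they ranged from 0.59 to 1.00, 0.48 to 0.74 and 0.47 to 0.65, with 1 to 4 genes called, and 0 to 3 of the ratios passed. Quantile normalization called the regulator between pH 4.0 and pH 2.0 (0.30, 1 gene called), left 1 gene called between pH 6.0 and pH 4.0 (YALI0F01584g 0.50, the kinase 0.72 and the dehydrogenase 0.54 were lost) and 0 for the step difference (regulator 0.47). In edgeR and in DESeq2 1 gene was called for the step difference, and in limma 1 at an unadjusted p. DESeq2 called 2 genes between pH 4.0 and pH 2.0, the kinase (0.61) and the dehydrogenase (0.51). Without the trend the dehydrogenase was lost between pH 6.0 and pH 4.0 (0.65). At an adjusted p of 0.01, 1 gene was left there, without YALI0F01584g (0.54), the kinase (0.80) and the dehydrogenase (0.65). With equal column totals the all-gene median between pH 6.0 and pH 2.0 was -0.25, against -0.04 as deposited, and no call of the 5 genes changed.

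The replicate letters are shared by the pH groups. Of 9 same-letter pairs of libraries, 3 had deviations that correlated over 0.1 (r from -0.20 to 0.27). Of 18 pairs with different letters, 5 did (r from -0.29 to 0.22). The letters were therefore not taken to pair the libraries. The labels do not say whether a letter marks a shared run. With the letter as a replicate block, 2 genes were called between pH 4.0 and pH 2.0, the kinase (0.63, adjusted p = 0.0110) and the dehydrogenase (0.54, adjusted p = 0.0101), and YALI0F01628g was called between pH 6.0 and pH 2.0 (0.36, adjusted p = 0.0488), all in limma. The call of transketolase YALI0E06479g between pH 4.0 and pH 2.0 was lost with that block (0.20, adjusted p = 0.0784 in limma). Replicate B was the highest library in 13 of 15 combinations of the 5 genes with a pH, and replicate A the lowest in 11 of 15.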
